A study of Glycine max with 30 samples.

Results

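The genes described here are 4 soybean (*Glycine max*) genes of the CAMTA (calmodulin-binding transcription activator) family, Glyma05g31190, Glyma08g14370, Glyma17g04310 and Glyma08g11080, of 54175 genes counted in all. They were chosen because they had been listed as CAMTA genes differing between a low phytic acid line and its sibling at seed developmental stages 3, 4 or 5, with 3, 2 and 2 listings at those stages. The choice therefore used the difference between the lines at stages 3 to 5 in these same libraries. At those stages the difference is described without a test, and tests were run on stages 1 and 2 and on changes between stages averaged over both lines.

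CAMTA proteins are transcription factors that carry a DNA-binding domain at the amino-terminal end and calmodulin-binding motifs towards the carboxyl-terminal end, so that calcium signals read by calmodulin can alter transcription. In *Arabidopsis thaliana*, CAMTA3, also called SR1, represses immunity that depends on salicylic acid, and plants that lack it show raised defense gene expression. All 4 soybean genes carry the annotation CAMTA3 or SR1, which rests on likeness to the *Arabidopsis* gene and is not a measurement in soybean. The first digits of each identifier give its chromosome in the Glyma.Wm82.a1.0 assembly, and positions, exons and sequences were not analysed here.

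The *3mlpa* line is homozygous for the *mips1*, *mrp-l* and *mrp-n* alleles and has low seed phytic acid. The line 3MWT carries the non-mutant alleles MIPS1, MRP-L and MRP-N and has normal phytic acid. Both descend from the same cross of a *mips1* parent and an *mrp* parent, so other parental segments can differ between them beside the mutations. MIPS1 makes *myo*-inositol phosphate, the first step towards phytic acid, and the MRP genes encode ABC transporters needed to accumulate it. The alleles are point mutations, which a count per gene cannot check. Whole seeds (cotyledons, endosperm and seed coat together) were pooled from separate plants of a single growth chamber, and stages were set by seed length as 2 to 4 mm (stage 1), 4 to 6 mm (stage 2), 6 to 8 mm (stage 3), 8 to 10 mm (stage 4) and 10 to 12 mm (stage 5). Each line had 3 biological replicates per stage, which made 30 mRNA libraries, and the 6 libraries of a stage shared a lane.

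Counts on genes ran from 18625357 to 26646706 per library in *3mlpa* (median 21821059) and from 14150244 to 29476755 in 3MWT (median 20650488). The lines differed in how many alignments were discarded as not unique, with 0.175 to 0.392 per counted read in *3mlpa* and 0.516 to 2.76 in 3MWT, and no library of one line fell within the range of the other. Its part in the results below was not tested. Some libraries stood apart from the replicates of their group. The count profile of *3mlpa* stage 3 replicate 1 had a chi-square per degree of freedom of 89.0 and 60.4 against its replicates, which had 11.4 between them, and its 10 most counted genes took 3.96 % of counts, against 10.4 and 8.90 %. The same measure was 94.8 and 66.4 against 5.25 for *3mlpa* stage 4 replicate 3, 43.0 and 52.3 against 5.05 for *3mlpa* stage 5 replicate 3, and 36.1 and 43.8 against 6.40 for 3MWT stage 1 replicate 2. Of reads that were counted, ambiguous or in no feature, the last of these had 29.7 % in no feature, against 21.8 and 20.7 % in its replicates. Less far apart was 3MWT stage 2 replicate 1, with a chi-square per degree of freedom of 15.9 and 32.1 against 6.91. Genes of seed filling were detected in every library, with 1.32 to 33.7 CPM for the raffinose synthase Glyma06g18890 and 6.36 to 22.5 CPM for the stachyose synthase Glyma19g40550. In whole seeds, fewer cells of a type and less RNA per cell cannot be told apart. Stages were matched between the lines by seed length alone. At stage 3 the 10 most counted genes took 8.55, 12.2 and 13.8 % of counts in 3MWT. At stage 4 they took 10.9, 12.2 and 21.3 % in *3mlpa* and 17.6, 19.5 and 16.6 % in 3MWT. At stage 5 they took 27.9, 25.7 and 25.7 % in *3mlpa* and 23.3, 24.9 and 25.0 % in 3MWT. Whether the lines were equally advanced at a stage was not tested. CPM (a count relative to its library's total) was scaled by TMM over all 30 libraries, without correction for gene length, so that values compare libraries and not genes.

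All 4 genes were counted in each of the 30 libraries and passed the filter of at least 10 counts at every stage. Raw counts ran from 51 to 900 for Glyma05g31190, from 31 to 480 for Glyma08g14370, from 121 to 777 for Glyma17g04310 and from 48 to 257 for Glyma08g11080. The HTSeq counts keep only reads with a single best place, so reads that fit near-identical copies equally well were lost, and the counts of genes with such copies are uncertain. The plot of abundance in each library shows every value.

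**Figure D1:**
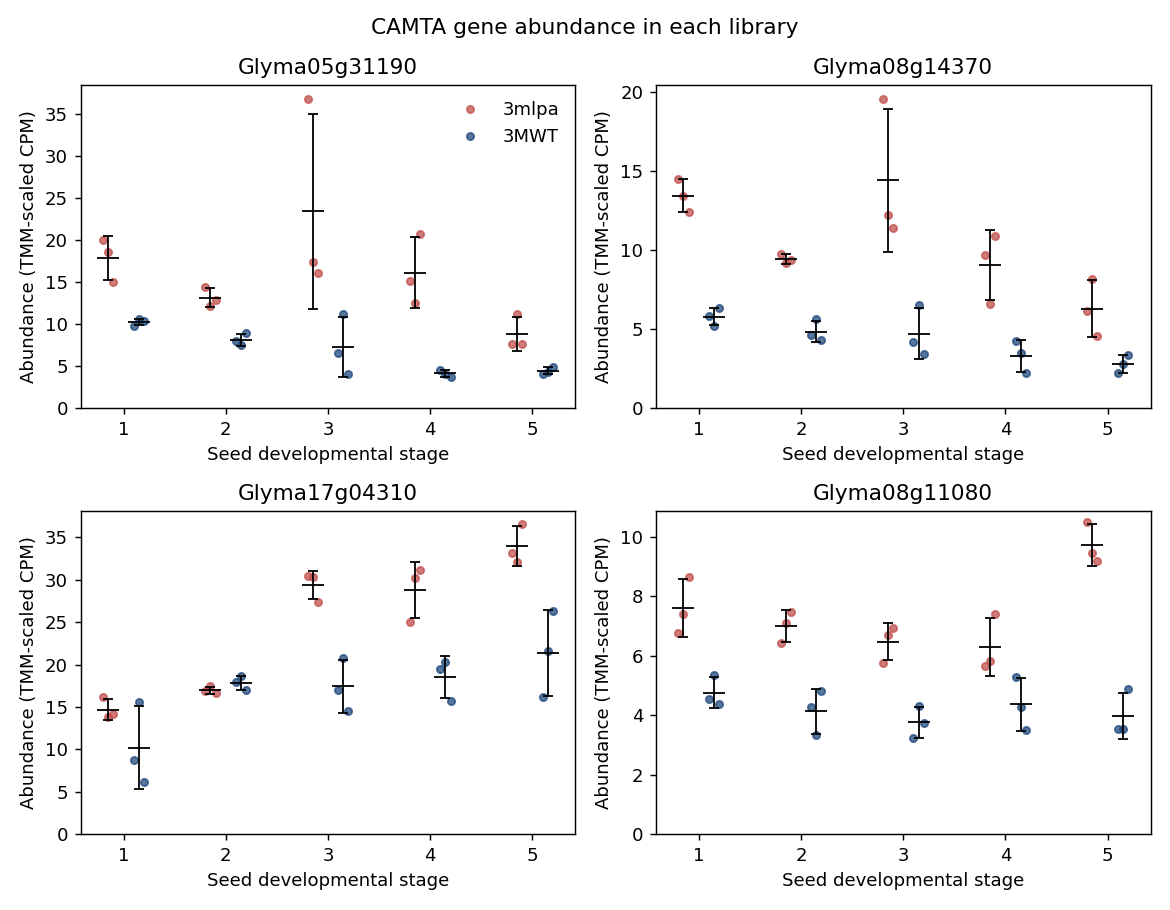
Abundance of the 4 CAMTA genes (TMM-scaled CPM, linear axes from 0, 1 panel per gene) against seed developmental stage, with 1 point per library, *3mlpa* left of 3MWT, a horizontal line at the mean and bars of 1 SD (n = 3). All *3mlpa* points lie above all 3MWT points in 18 of the 20 gene and stage combinations. The exceptions are Glyma17g04310 at stages 1 and 2. From stage 3 on, the line contrast chose these genes, so separation there is no independent evidence. Such separation was found for 15.9 % (stage 4) to 21.6 % (stage 2) of all genes tested at a stage.

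Glyma05g31190 was higher in all 3 *3mlpa* libraries than in any 3MWT library at each of the 5 stages. At stage 1 it had 20.1, 18.6 and 15.0 CPM in *3mlpa*, against 9.84, 10.6 and 10.4 CPM in 3MWT. At stage 2 the values were 14.4, 12.2 and 12.9 CPM in *3mlpa* and 8.05, 7.50 and 8.94 CPM in 3MWT. The 3MWT libraries lay close together at both stages, and the gap to the lowest *3mlpa* library was wider than their range. Stage 3 gave 36.8, 17.4 and 16.0 CPM in *3mlpa* and 6.55, 11.2 and 4.12 CPM in 3MWT. The first *3mlpa* replicate of stage 3 stood far above its group, as a library that also stood apart over all genes, and the 3MWT libraries were also more scattered than at other stages. Stage 4 gave 15.1, 12.5 and 20.8 CPM in *3mlpa* and 4.61, 4.12 and 3.73 CPM in 3MWT. Stage 5 gave 7.65, 11.2 and 7.65 CPM in *3mlpa* and 4.14, 4.37 and 4.95 CPM in 3MWT. The lines lay closest in CPM at stage 5, after the level in *3mlpa* had come down.

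Glyma08g14370 likewise had no overlap between the lines at any of the 5 stages. At stage 1 its level was 14.6, 13.5 and 12.4 CPM in *3mlpa* and 5.86, 5.24 and 6.35 CPM in 3MWT. At stage 2 it was 9.78, 9.22 and 9.39 CPM in *3mlpa* and 4.64, 5.64 and 4.33 CPM in 3MWT. Replicates were tight at both stages, the *3mlpa* libraries of stage 2 above all. In the stage 3 libraries it had 19.6, 12.2 and 11.4 CPM in *3mlpa* and 4.20, 6.55 and 3.45 CPM in 3MWT. The same *3mlpa* replicate that was high for Glyma05g31190 was high here. In those of stage 4 it had 9.70, 6.62 and 10.9 CPM in *3mlpa* and 4.25, 3.50 and 2.27 CPM in 3MWT. In those of stage 5 it had 6.18, 8.18 and 4.57 CPM in *3mlpa* and 2.24, 2.80 and 3.36 CPM in 3MWT. The last group of 3MWT held the lowest mean of the gene, 2.80 ± 0.563 CPM (SD, n = 3).

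Glyma17g04310 differed from the other 3 genes in that its lines overlapped at the first 2 stages. At stage 1 the *3mlpa* libraries had 16.2, 13.8 and 14.1 CPM and the 3MWT libraries 8.78, 15.6 and 6.14 CPM. The second 3MWT replicate fell inside the range of *3mlpa*, and the other two 3MWT libraries lay below it. At stage 2 the *3mlpa* libraries had 16.9, 17.4 and 16.6 CPM and the 3MWT libraries 18.0, 18.6 and 17.0 CPM. Here the lines were interleaved, with 3MWT slightly the higher. From stage 3 on, the groups separated, with 30.4, 30.3 and 27.4 CPM in *3mlpa* and 17.0, 20.7 and 14.6 CPM in 3MWT. Stage 4 *3mlpa* libraries had 25.0, 30.3 and 31.2 CPM and those of 3MWT 19.5, 20.3 and 15.7 CPM. Stage 5 *3mlpa* libraries had 33.1, 32.1 and 36.6 CPM and those of 3MWT 16.2, 21.6 and 26.3 CPM. The gene was at its highest in *3mlpa* at stage 5, where all 3 libraries lay above every other library of the gene.

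Glyma08g11080 was separated between the lines at each of the 5 stages. Its stage 1 libraries had 6.75, 7.42 and 8.65 CPM in *3mlpa* and 4.55, 5.34 and 4.37 CPM in 3MWT. Its stage 2 libraries had 6.43, 7.10 and 7.47 CPM in *3mlpa* and 4.26, 3.33 and 4.82 CPM in 3MWT. At both stages the lowest *3mlpa* library was still above the highest 3MWT library. The stage 3 libraries held 5.76, 6.71 and 6.93 CPM in *3mlpa* and 3.25, 4.30 and 3.73 CPM in 3MWT. The stage 4 libraries held 5.67, 5.81 and 7.41 CPM in *3mlpa* and 5.29, 4.29 and 3.51 CPM in 3MWT. At stage 4 the lowest *3mlpa* library and the highest 3MWT library nearly met. The stage 5 libraries held 10.5, 9.46 and 9.19 CPM in *3mlpa* and 3.53, 3.52 and 4.88 CPM in 3MWT. Only *3mlpa* stood out at stage 5, since its 3 libraries were above all others of the gene while 3MWT stayed within its earlier range.

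Over the 10 groups of line and stage, the order of the means differed among the genes. For Glyma05g31190 it ran from *3mlpa* at stage 3 (23.4 ± 11.6 CPM), over *3mlpa* at stages 1, 4 and 2, 3MWT at stage 1, *3mlpa* at stage 5 and 3MWT at stages 2, 3 and 5, down to 3MWT at stage 4 (4.16 ± 0.441 CPM). Of the 9 neighbouring pairs in that order, only *3mlpa* at stage 2 and 3MWT at stage 1 did not overlap. For Glyma08g14370 the 5 *3mlpa* groups came first (stages 3, 1, 2, 4 and 5) and the 5 3MWT groups after them in the order of the stages. There the one neighbouring pair apart was *3mlpa* at stage 1 (13.5 ± 1.07 CPM) and *3mlpa* at stage 2 (9.46 ± 0.289 CPM). For Glyma17g04310 the order was *3mlpa* at stages 5, 3 and 4, then 3MWT at stages 5, 4, 2 and 3, then *3mlpa* at stages 2 and 1, and last 3MWT at stage 1 (10.2 ± 4.90 CPM). *3mlpa* at stage 5 was apart from *3mlpa* at stage 3, and *3mlpa* at stage 2 from *3mlpa* at stage 1, while the other neighbours overlapped. For Glyma08g11080 the 5 *3mlpa* groups again came first, from stage 5 (9.72 ± 0.696 CPM) over stages 1, 2 and 3 to stage 4, followed by 3MWT at stages 1, 4, 2, 5 and 3 (3.76 ± 0.529 CPM). The neighbours apart were *3mlpa* at stages 5 and 1, and *3mlpa* at stage 4 and 3MWT at stage 1.

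Counts of genes with all 3 *3mlpa* libraries above all 3MWT libraries must be read against the whole table. Such separation was found for 17.6, 21.6, 17.5, 15.9 and 18.3 % of the genes tested at stages 1 to 5. Of the CAMTA genes 3 of 4 showed it at both early stages, and 4 of 4 did at each later stage, where the choice of the genes used the same contrast.

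The difference between the lines before stage 3 was tested on the raw counts of each stage with the quasi-likelihood test of edgeR, and a gene was called at an adjusted p at or below 0.01. At stage 1 Glyma08g14370 was called higher in *3mlpa*, with a log2 fold change of 1.22 (SE 0.136, adjusted p = 0.00539, edgeR). The other 3 genes were not called, and 243 of 42457 genes tested, or 0.572 %, were called higher at this stage. Glyma05g31190 had a log2 fold change of 0.81 (SE 0.137, adjusted p = 0.0170, edgeR). For Glyma08g11080 it was 0.69 (SE 0.161, adjusted p = 0.0363, edgeR). For Glyma17g04310 it was 0.55 with a wide error (SE 0.299, adjusted p = 0.262, edgeR). At an unadjusted p below 0.05, 3 of the 4 genes passed at stage 1, as did 29.9 % of all genes. The call of Glyma08g14370 was lost without *3mlpa* replicate 1, *3mlpa* replicate 2, 3MWT replicate 1 or 3MWT replicate 3, with adjusted p up to 0.0396 (edgeR) and log2 fold changes of 1.17 to 1.29. Without 3MWT replicate 2, which overlapped *3mlpa* for this gene and stood apart over all genes, Glyma17g04310 had a log2 fold change of 0.98 (adjusted p = 0.00523, edgeR), and 3 of the 4 genes were called higher, against 5.03 % of all genes in that fit.

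At stage 2, 3 of the 4 genes were called higher in *3mlpa* on the TMM scale (none when scaled to UBQ10 alone, as given below), against 7.68 % of all genes tested called higher and 14.2 % called in either direction. Glyma08g14370 had a log2 fold change of 0.99 (SE 0.120, adjusted p = 0.000911, edgeR), close to a doubling (fold change 1.99). Glyma05g31190 had 0.71 (SE 0.107, adjusted p = 0.00219, edgeR). Glyma08g11080 had 0.78 (SE 0.154, adjusted p = 0.00706, edgeR). For Glyma17g04310 the estimate was -0.04 (95 % interval -0.20 to 0.12, adjusted p = 0.693, edgeR), an interval that leaves out the log2 fold changes of the other 3 genes. Glyma08g14370 stayed called whichever library of the stage was left out. Glyma05g31190 lost its call without 3MWT replicate 2 (log2 fold change 0.66, adjusted p = 0.0113, edgeR). Glyma08g11080 lost its call without each library in turn other than 3MWT replicate 3, with adjusted p up to 0.0285 (edgeR) and log2 fold changes of 0.65 to 0.83. Without 3MWT replicate 2 only 1 of the 4 genes was called, against 3.27 % of all genes called higher in that fit.

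The qPCR reference gene UBQ10 (Glyma07g32020), a polyubiquitin, itself had higher mean levels in *3mlpa* on the TMM scale, with log2 differences of 0.19, 0.58, 0.36, 0.23 and 0.03 at stages 1 to 5. Scaling every library by UBQ10 counts alone, an alternative chosen after seeing the data, moves all genes down by about these amounts. On that scale the log2 fold changes at stage 2 were 0.14 for Glyma05g31190, 0.41 for Glyma08g14370 and 0.21 for Glyma08g11080, none of them called where 2.64 % of all genes were called higher, and -0.63 for Glyma17g04310, which was called lower (adjusted p = 0.000722, edgeR). At stage 1 Glyma08g14370 kept a log2 fold change of 1.05 but not its call (adjusted p = 0.0492, edgeR). Under TMM the median log2 fold change of all genes lay between -0.0038 and 0.0301 at the 5 stages. TMM aims at such centring, so these medians do not tell which scale is right.

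**Figure D2:**
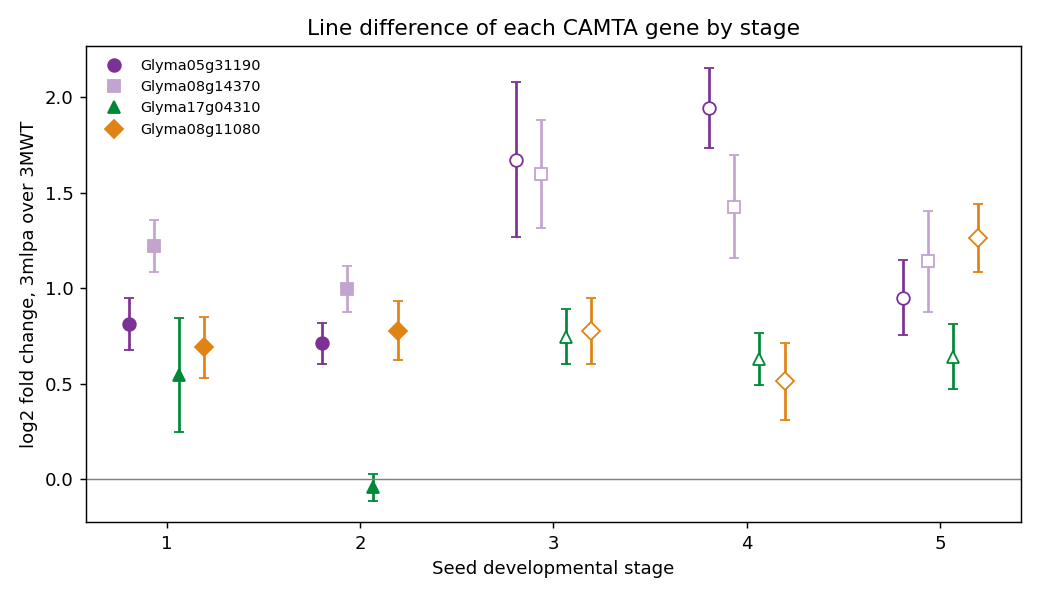
Log2 fold change of *3mlpa* over 3MWT (vertical axis) for each CAMTA gene at the 5 seed developmental stages (horizontal axis), from edgeR fits of the 6 libraries of a stage, with bars of 1 standard error. Filled symbols mark the tested stages 1 and 2 and open symbols the stages whose line contrast chose the genes. Glyma17g04310 at stage 2 (-0.04) is the one estimate below 0.

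At stages 3 to 5, where the line contrast chose the genes, log2 fold changes of Glyma05g31190 were 1.67 (SE 0.407), 1.95 (SE 0.210) and 0.95 (SE 0.195). The value at stage 3 was 1.19 without the high *3mlpa* replicate 1 and 2.12 without 3MWT replicate 2. At stage 4 it was 1.72 without *3mlpa* replicate 3 and 2.10 without *3mlpa* replicate 2. At stage 5 it was 0.75 without *3mlpa* replicate 2 and 1.05 without *3mlpa* replicate 3. For Glyma08g14370 they were 1.60 (SE 0.282), 1.43 (SE 0.269) and 1.14 (SE 0.264). Its value at stage 3 was 1.31 without *3mlpa* replicate 1 and 1.90 without 3MWT replicate 2. At stage 5 it was 0.91 without *3mlpa* replicate 2 and 1.34 without *3mlpa* replicate 3. Glyma17g04310 had lower values than that pair, with 0.75 (SE 0.143), 0.63 (SE 0.137) and 0.64 (SE 0.170). Glyma08g11080 had 0.78 (SE 0.172), 0.51 (SE 0.202) and 1.26 (SE 0.178). The median over the 4 genes was 0.75, 0.75, 1.19, 1.03 and 1.05 at stages 1 to 5, and the largest of these fold changes, that of Glyma05g31190 at stage 4, was exceeded by 2.12 % of the genes tested there. Listing came from the authors' DESeq test at 1 % FDR, whereas these fold changes are from edgeR. At stages 4 and 5 the listed genes had the larger fold changes of the 4. At stage 3 the listed Glyma17g04310 (0.75, SE 0.143) and the unlisted Glyma08g11080 (0.78, SE 0.172) had nearly the same value. Across stages, the smallest value among the 7 listed combinations was 0.75 (Glyma17g04310 at stage 3). The largest among those not listed at stages 3 to 5 was 0.95, at another stage (Glyma05g31190 at stage 5).

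Whether the difference between the lines itself changed from stage 1 to stage 2 was tested as an interaction in a single fit of the 30 libraries. The line effect at stage 2 minus that at stage 1 was -0.12 for Glyma05g31190 (95 % interval -0.90 to 0.67), -0.25 for Glyma08g14370 (-0.95 to 0.45) and 0.07 for Glyma08g11080 (-0.41 to 0.55), on the log2 scale. For Glyma17g04310 it was -0.61 (-1.20 to -0.01), with an adjusted p of 0.463 (edgeR). By edgeR 0 of the 4 genes were called, and 1 had an unadjusted p below 0.05, against 2 of 45815 genes called (0.00437 %) and 4804 (10.5 %) with an unadjusted p below 0.05. Without 3MWT replicate 2 of stage 1 the estimate for Glyma17g04310 was -1.04 (adjusted p = 0.00758, edgeR), so the outcome for this gene depends on that library, which stood apart over all genes.

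Changes over seed development, averaged over both lines, did not use the contrast that chose the genes. The spread in this fit, as in that of the interaction, came partly from the libraries of stages 3 to 5, where the genes were chosen. Glyma05g31190 and Glyma08g14370 fell between stage 1 and stage 5, Glyma17g04310 rose, and Glyma08g11080 was not called, although scaling to UBQ10 alone ended the call of Glyma17g04310 and gave one to Glyma08g11080. By the edgeR quasi-likelihood test, the log2 change at stage 5 relative to stage 1 was -1.11 (SE 0.202, adjusted p = 3.48e-05) for Glyma05g31190, a 2.15-fold decrease. For Glyma08g14370 it was -1.07 (SE 0.181, adjusted p = 1.17e-05, edgeR), a 2.11-fold decrease. For Glyma17g04310 it was 1.14 (SE 0.146, adjusted p = 1.96e-07, edgeR), a 2.20-fold increase. Glyma08g11080 had 0.05 (95 % interval -0.20 to 0.30, adjusted p = 0.746, edgeR). These 3 calls among 4 genes stand against 54.2 % of all genes called between these stages in either direction, so a call as such is common here. The 3 genes stayed called whichever replicate number was left out. The highest TMM factors, 1.38 in *3mlpa* and 1.40 in 3MWT, were at stage 1, and the lowest, 0.695 and 0.700, at stage 5. Changes over this span on the TMM scale depend on these factors. Before scaling, Glyma17g04310 had 458, 365 and 405 counts in *3mlpa* at stage 1 and 429, 526 and 641 at stage 5. The totals of these libraries were 19212061 to 20839796 and 18625357 to 24607364. In 3MWT the counts were 247, 310 and 121, and 239, 331 and 399. Totals there were 14150244 to 22145578 and 20973012 to 21728609. Each stage was a single sequencing lane, so stage and lane cannot be told apart.

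**Figure D3:**
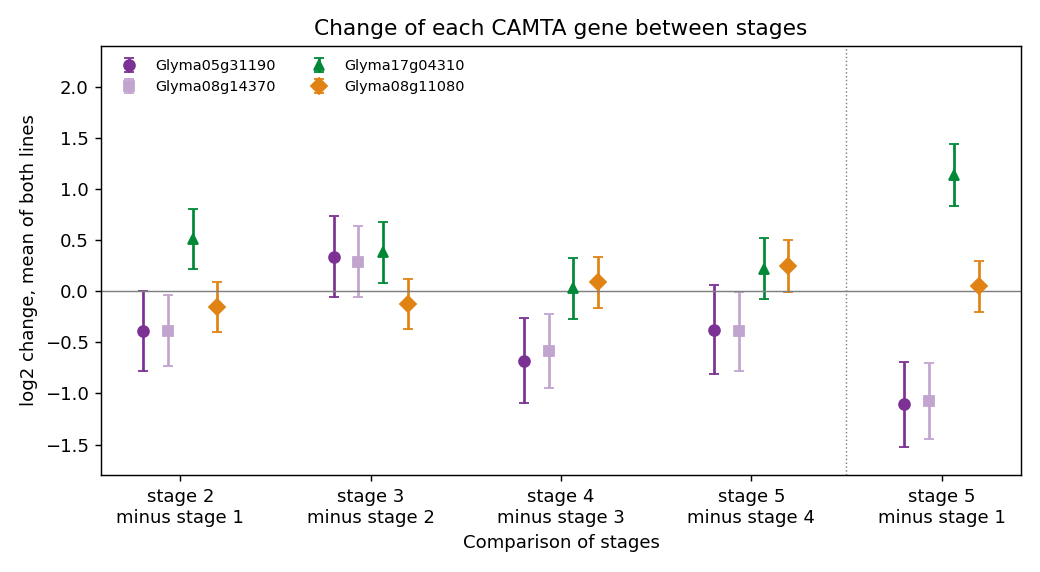
Log2 change between consecutive seed developmental stages, and between stages 5 and 1 right of the dotted line, as the mean of both lines for each CAMTA gene, with bars of the 95 % confidence interval from a single edgeR fit of 30 libraries. Glyma05g31190 and Glyma08g14370 lie side by side in every comparison, and Glyma17g04310 ends opposite to them (1.14 against -1.11 and -1.07).

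Most single steps were too small to pass the test. From stage 1 to stage 2, Glyma17g04310 rose by 0.51 on the log2 scale (SE 0.145, adjusted p = 0.00895, edgeR), which made 1 of 4 genes against 18.5 % of all genes called. Its log2 change was 0.22 in *3mlpa* alone (adjusted p = 0.182, edgeR) and 0.81 in 3MWT alone (adjusted p = 0.0273, edgeR), called in neither. The call was also lost with DESeq2 size factors (0.49, adjusted p = 0.0111, edgeR) and when all libraries of replicate number 1 or of number 3 were left out (0.49 and 0.38). At this step the other 3 genes had log2 changes of -0.39 (Glyma05g31190), -0.39 (Glyma08g14370) and -0.15 (Glyma08g11080). From stage 2 to stage 3, 15.5 % of all genes were called but 0 of the 4 by edgeR and 0 by the DESeq2 Wald test, with 1 gene at an unadjusted p below 0.05, as 36.6 % of all genes. That gene was Glyma17g04310 (0.38, adjusted p = 0.0517, edgeR). Shares of all genes at these steps are by edgeR, and those of the DESeq2 Wald test were not computed. From stage 3 to stage 4, 5.63 % of all genes were called, with 0 of the 4 by either tool and 2 at an unadjusted p below 0.05, as 26.2 % of all genes. These were Glyma05g31190 (-0.68, adjusted p = 0.0264, edgeR) and Glyma08g14370 (-0.59, adjusted p = 0.0302, edgeR). Glyma05g31190 had -0.98 and was called without the libraries of replicate number 3 (adjusted p = 0.00913, edgeR). From stage 4 to stage 5, 3.10 % of all genes were called, with 0 of the 4 by either tool and 1 at an unadjusted p below 0.05, as 21.8 % of all genes.

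UBQ10 rose by 0.61 on the log2 scale from stage 1 to stage 5 (adjusted p = 7.98e-05, edgeR), so scaling to it lowers every change over that span. On the UBQ10 scale the change of Glyma17g04310 was 0.49 (adjusted p = 0.0424, edgeR) and no longer called. That of Glyma08g11080 turned to -0.59 and was called (adjusted p = 0.00425, edgeR). Glyma05g31190 (-1.75) and Glyma08g14370 (-1.70) stayed called.

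Glyma05g31190 and Glyma08g14370 followed each other closely. As a description, the Pearson correlation of their log2(CPM + 1) values over the 30 libraries was 0.958, and among 32400 genes with a mean of at least 1 CPM each was the gene most like the other. The libraries share line, stage and lane, so the correlation was also computed after the mean of each group of line and stage was taken out. It was then 0.823, again the highest of all 32400 genes for both, and 0.792 without the high *3mlpa* replicate of stage 3. The 95th percentile of such within-group values over all genes was 0.402 for Glyma05g31190 and 0.382 for Glyma08g14370. The other 5 pairs among the 4 genes had correlations of 0.160 to 0.634 over the libraries and 0.121 to 0.408 within groups. How alike the pair is in sequence was not analysed here.

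**Figure D4:**
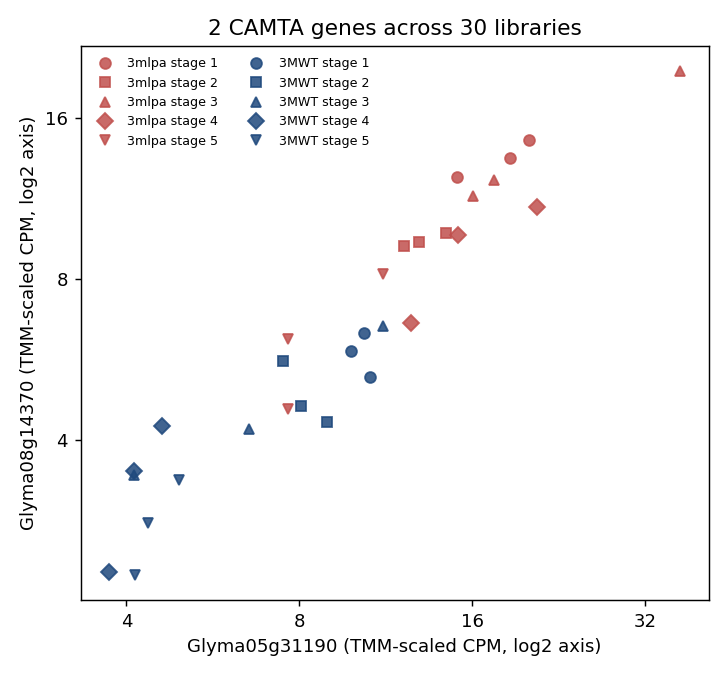
Abundance of Glyma08g14370 (vertical axis) against Glyma05g31190 (horizontal axis) in 30 libraries, both as TMM-scaled CPM on log2 axes, with colour for the line and symbol for the stage. The points lie along a single band (Pearson r = 0.958), with the first *3mlpa* replicate of stage 3 at the upper end (36.8 and 19.6 CPM).

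The share of the pair's reads that fell on Glyma05g31190 compares the genes of the pair within a library, so that scaling between libraries does not enter. Because gene length is not corrected, the share says how the balance moved and not which gene was the more expressed. At stage 1 it was 58.0, 58.0 and 54.8 % in *3mlpa* and 62.7, 67.0 and 62.0 % in 3MWT, without overlap. Stage 2 gave 59.5, 56.9 and 57.9 % in *3mlpa* and 63.4, 57.1 and 67.4 % in 3MWT, where 3MWT replicate 2 overlapped with *3mlpa*. Over both stages the mean difference of *3mlpa* minus 3MWT was -5.75 percentage points, given without a test because the share was chosen after the values were seen. The shares of single libraries at these stages have exact 95 % binomial intervals such as 54.8 to 61.1 % for the first *3mlpa* replicate and 58.0 to 67.2 % for the first 3MWT replicate of stage 1, which cover counting error only. At stages 3 to 5 the mean shares were 60.8 ± 3.85, 63.9 ± 2.61 and 58.6 ± 3.72 % in *3mlpa* and 59.5 ± 4.50, 56.1 ± 5.36 and 61.8 ± 2.79 % in 3MWT (SD, n = 3). The sign of the difference thus was not the same at all stages, with *3mlpa* the higher at stages 3 and 4.

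Beyond each other, the genes most like Glyma05g31190 over the 30 libraries were Glyma06g41380 (r = 0.874) and Glyma17g01620 (r = 0.873). Glyma06g41380, which is annotated as a disease resistance protein of the TIR-NBS-LRR class, was also second for Glyma08g14370 (r = 0.920), followed by Glyma06g41392 (r = 0.897). Over the means of the 10 groups, Glyma06g41380 had Spearman correlations of 0.976 and 0.988 with them, the highest values but tied among 8 genes for Glyma05g31190 and among 3 for Glyma08g14370. For Glyma17g04310 the leading genes were Glyma13g17510 (r = 0.944), Glyma13g18805 (r = 0.944) and Glyma20g37760 (r = 0.935). For Glyma08g11080 they were Glyma06g16350 (r = 0.920), Glyma04g35780 (r = 0.916) and Glyma15g02420 (r = 0.909). The Spearman measure kept 1 of the 3 leading genes for Glyma05g31190, 1 for Glyma08g14370, 0 for Glyma17g04310 and 0 for Glyma08g11080, so these names depend on the measure. Both measures take in the differences between lines and stages, including the line contrast that chose the CAMTA genes. Within-group correlations are not given for the genes named here. The median correlation with all genes lay between -0.0250 and 0.0458.

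Genes next to the CAMTA genes in identifier order were compared between the lines at stage 2, where 14.2 % of all genes were called in either direction. Of the 20 nearest identifiers around each, 3 of 18 tested were called for Glyma05g31190, 3 of 17 for Glyma08g14370, 2 of 18 for Glyma17g04310 and 4 of 20 for Glyma08g11080. The median log2 fold changes of these neighbours were 0.01, 0.06, 0.20 and -0.05.

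Defense genes and WRKY genes are given as the wider setting, since *Arabidopsis* CAMTA3 acts on defense. Both lists had been chosen on these same samples for differing between the lines, mainly at the early stages. They are therefore no independent evidence of a direction or of how often genes are called. Their calls and adjusted p values only describe the lists, and the shares of all genes are no fair baseline for them. WRKY proteins are transcription factors with many roles in defense. Of 14 WRKY genes tested, 3 were called higher in *3mlpa* at stage 1 and 5 at stage 2, with median log2 fold changes of 1.77 and 0.92, against medians of all genes of -0.0038 and 0.0120 and shares of all genes called higher of 0.572 and 7.68 %. Their medians were 0.72, 0.14 and -0.03 at stages 3 to 5, with only 12 genes tested at stage 5. Those of the CAMTA genes, chosen on these later stages, were 1.19, 1.03 and 1.05. Of 60 defense genes, largely of the disease resistance classes, 12 were called higher and 2 lower at stage 1, and 34 higher and 10 lower at stage 2, where 0.897 and 14.2 % of all genes were called in either direction. Their medians were 0.89, 0.93, 1.19, 0.64 and 0.70 at stages 1 to 5, with 59 genes tested at stage 4 and 58 at stage 5. In the WRKY list, the member of highest mean CPM, Glyma04g08060, had a log2 fold change of 0.77 at stage 1 (SE 0.162, adjusted p = 0.0280, edgeR) and 0.61 at stage 2 (SE 0.116, adjusted p = 0.00598, edgeR). The next, Glyma05g20710, had 1.00 (adjusted p = 0.0479, edgeR) and -0.08 (adjusted p = 0.770, edgeR), called at neither stage. In the defense list, the member of highest mean CPM, Glyma16g32290, had 0.81 at stage 1 (SE 0.140, adjusted p = 0.0179, edgeR) and 1.07 at stage 2 (SE 0.129, adjusted p = 0.000877, edgeR). The next, Glyma09g27100, had 0.37 (adjusted p = 0.153, edgeR) and 0.81 (adjusted p = 0.0126, edgeR), also called at neither.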

How the data were processed

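RNA of whole developing seeds from 2 soybean lines at 5 stages was sequenced as single-end reads, with 3 replicates per line and stage. The authors mapped reads to the Glyma.Wm82.a1.0 genome with TopHat 2.0.8 and counted them with HTSeq in Union mode. Raw counts per gene were deposited, and the lines of HTSeq without a gene were left out. Of reads counted, ambiguous or in no feature, 13.1 to 29.7 % fell in no feature. The deposited normalized values, and tables of the authors' own comparisons (fold changes and p-values from DESeq 1.12.1, and GO terms), were not used.

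Counts were analysed with edgeR 4.0.16 (R 4.3.3), with TMM scaling, the quasi-likelihood test and Benjamini-Hochberg adjustment over all genes tested. Line effects were fitted per stage, for genes whose 6 libraries summed to 10 counts or more. Stage changes and the interaction used 10 group means over 30 libraries. The threshold was an adjusted p of 0.01. Standard errors are the absolute log2 change divided by the square root of F. Likeness was the Pearson correlation of log2(CPM + 1). Named genes were the 4 CAMTA genes, the 3 genes most like each, and up to 2 genes of highest CPM per list. The members and lists were chosen with earlier results of these data known. Scripts were tested on simulated data.

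Replicates were separate seed pools. No 2 libraries of a group agreed within sampling noise (chi-square per degree of freedom of at least 5.05). Alternatives were DESeq2 1.42.0 (Wald test, size factors), other filters, fits of all or fewer libraries, a replicate block, libraries left out, Spearman correlation and, chosen after seeing the data, UBQ10 scaling. None of the identifiers was matched in the reference table of names, so positions, sequences and other CAMTA genes were not analysed here.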

Additional observations from a re-analysis of the deposited data

How the results depend on the processing

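Of the 600 values recomputed under the alternatives, 535 stayed on their side of the threshold, moved by less than the spread between replicates or, as counts of genes, stayed within 1.5 times. Of these, 16 changed sign, with 0 of the 16 called, mostly for steps between stages (for example -0.25 for Glyma08g11080 from stage 1 to stage 5 in 3MWT alone). Under these alternatives the share of all genes called was computed only for UBQ10 scaling at stage 2 and line effects without 3MWT replicate 2. Other counts of genes called below have no such baseline. Scaling to UBQ10 changed most. It gave log2 fold changes of *3mlpa* over 3MWT of 1.05 at stage 1 for Glyma08g14370. At stage 2 it gave 0.14, 0.41, -0.63 and 0.21 for Glyma05g31190, Glyma08g14370, Glyma17g04310 and Glyma08g11080, and 0 genes called higher at each of these stages. At stage 3 it gave 0.42 for Glyma17g04310 and 0.42 for Glyma08g11080, and at stage 4 it gave 1.68 for Glyma05g31190, 0.40 for Glyma17g04310 and 0.27 for Glyma08g11080. From stage 1 to stage 5 it gave 0.49 for Glyma17g04310 and -0.59 for Glyma08g11080, a call opposite in sign to an uncalled value of 0.05, on a scale that lowers all genes alike. It called 0 genes from stage 1 to stage 2 and 1 from stage 3 to stage 4. The DESeq2 Wald test called 3 genes at stage 1 (share of all genes not computed), with 0.82 for Glyma05g31190 and 0.70 for Glyma08g11080. The single fit of 30 libraries called 2 genes at stage 1, with 0.68 for Glyma08g11080, and gave 0.69 for Glyma05g31190 at stage 2, no longer called. From stage 1 to stage 2, 0 genes were called in 3MWT alone, in *3mlpa* alone and with DESeq2 size factors, and from stage 2 to stage 3 *3mlpa* alone called 1 (Glyma17g04310, 0.75, against -0.03 in 3MWT alone), in libraries whose stage 3 values had chosen the gene.

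Replicate numbers were not shown to pair samples, since deviations of same-numbered libraries correlated between -0.31 and 0.40, above 0.1 in 2 of 15 pairs. With a replicate block, 0 genes were called at stage 1 (Glyma08g14370 1.23, adjusted p = 0.0392, edgeR), and Glyma08g11080 had 0.79 at stage 2 without a call (adjusted p = 0.0148, edgeR).

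Leaving out a library each time gave log2 fold changes at stage 1 of 0.72 to 0.93 for Glyma05g31190, 1.16 to 1.29 for Glyma08g14370 and 0.29 to 0.98 for Glyma17g04310, with 0 to 3 genes called. At stage 2 the ranges were 0.64 to 0.79 for Glyma05g31190 and 0.65 to 0.92 for Glyma08g11080, with 1 to 3 genes called. At stage 5 Glyma08g11080 ranged from 1.18 to 1.44. Leaving out a replicate number called 0 to 1 genes from stage 1 to 2 and 0 to 1 from stage 3 to 4. Counts per library as low as 31 (Glyma08g14370) and 48 (Glyma08g11080) limit the precision of single values.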
